A study of Mus musculus with 10 samples.

Results

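The 8 mouse genes described here are Etv1, Lcorl, Dpy19l1, Pip4k2a, Anln, Sypl, Tmeff1 and Efcab14. They were more abundant in the spinal cord of every mouse labelled transgenic for human TARDBP than in that of every mouse labelled nontransgenic. They were picked by that pattern from a table of 22024 genes in 10 libraries, of which 15191 genes, all 8 among them, passed a filter on low counts. The difference between transgenic and nontransgenic cord is therefore what chose them and is given as a description, without a test. PolyA RNA was sequenced from the lumbar cord of female mice aged 3 months, 1 library per animal. M337V mice (n = 5, numbered 1, 2, 3, 7 and 9) held the human gene, which encodes the RNA-binding protein TDP-43, with the M337V change linked to amyotrophic lateral sclerosis, on a bacterial artificial chromosome placed at Rosa26 (Gt(ROSA26)Sor) by PhiC31 integrase. WT mice (n = 2, numbered 8 and 10) held the same construct without the change, and NTg mice (n = 3, numbered 4, 5 and 6) were labelled as C57BL/6 mice without a construct, which the reads of 1 of them go against; controls were littermates of the same age. Each transgenic line came from targeted embryonic stem cells of the IDG26.10-3 line and was crossed to C57BL/6J, and the labels do not say whether the sampled mice carried the construct on 1 or both chromosomes. Mouse Tardbp was read in every group, at 228 to 280 CPM in M337V, 244 to 255 CPM in WT and 237 to 249 CPM in NTg, in counts scaled to library size (CPM). Each transgenic genotype is 1 line, so genotype and line cannot be told apart.

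The 8 genes belong to no single pathway. Etv1 and Lcorl encode nuclear proteins that regulate transcription: Etv1 is an ETS factor of the PEA3 group, known in mouse cord for its part in the wiring of muscle sensory afferents, and Lcorl is related to the nuclear receptor corepressor Lcor. Dpy19l1 belongs to a family of sugar transferases of the endoplasmic reticulum that attach mannose to tryptophan, and Pip4k2a encodes a kinase that turns phosphatidylinositol 5-phosphate into the 4,5-bisphosphate. Anln encodes anillin, a scaffold that ties actin, septins and myosin together at the cleavage furrow of dividing cells and that also holds septin filaments in central myelin. Sypl encodes a relative of the synaptic vesicle protein synaptophysin that sits in small transport vesicles of many cell types. Tmeff1 encodes a brain-rich membrane protein with follistatin-like domains, and Efcab14 encodes a protein with calcium-binding EF hands about which less is known.

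Library totals ran from 18724888 to 21041474 counts, and the 8 genes had between 470 counts (Lcorl in NTg 5) and 7639 counts (Pip4k2a in WT 8) per library. Human TARDBP, counted under its own identifier, checked the labels. The 7 libraries labelled transgenic held 114 to 141 CPM of it, NTg 5 held 1 count and NTg 6 held 4 counts. The library labelled NTg 4 held 2415 counts, or 118 CPM, which lies within the transgenic range and goes against its label. The choice of the 8 genes counted that library as nontransgenic, so its low level for them is fixed by the choice and says nothing about its label. Averaged over the 8 and centred per gene, it stood at -0.30 on the log2 scale, beside -0.34 in NTg 5 and -0.45 in NTg 6, against 0.03 (M337V 9) to 0.33 (WT 8) in the transgenic libraries. It was the highest of the NTg libraries for 6 of the 8. The library names put NTg 4 to 6 at TDP_2 to TDP_4, animals 7 to 10 at TDP_5 to TDP_8 and M337V 1 to 3 at TDP_10 to TDP_12. The NTg libraries thus also have consecutive names, and label and name order cannot be told apart.

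**Figure D1:**
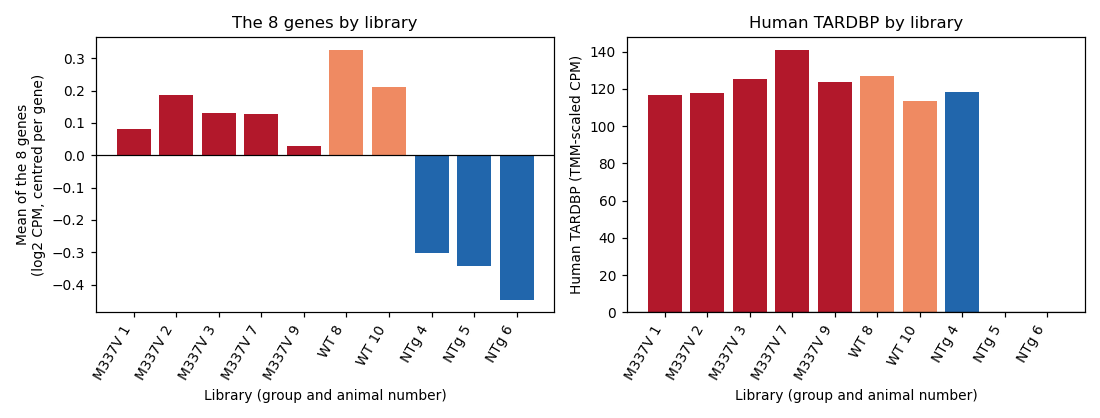
Left, the mean of the 8 genes in each library (log2 CPM, centred per gene); right, human TARDBP in TMM-scaled CPM. Bars are single libraries coloured by group label (M337V dark red, WT orange, NTg blue). The library labelled NTg 4 stands at -0.30 on the left, where the choice of the genes places it below the transgenic libraries, and at 118 CPM, within their range, on the right.

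Over all genes tested, 1220 (8.03%) had every transgenic library above every NTg library, and 968 (6.37%) had every transgenic library below. Ranked by the gap between the lowest transgenic and the highest NTg library, Etv1 was first of 15191 (0.41 on the log2 scale), followed among the 8 by Tmeff1 (rank 4, 0.34), Anln (rank 5, 0.33), Pip4k2a (rank 7), Sypl (rank 9), Dpy19l1 (rank 25), Lcorl (rank 28) and Efcab14 (rank 37, 0.24). The genes outside the 8 with the widest gaps were Ermn (0.34), a cytoskeletal gene of oligodendrocytes, Rpgrip1l (0.34), a gene of the ciliary transition zone, and Spink10 (0.33), at a mean of 3.48 CPM. The 8 also ranked between 2 and 12 of 15191 by the p-value of edgeR's contrast of the mean of M337V and WT with NTg. In that contrast, which chose them, all 8 passed as higher, where 6.59% of all genes tested did, and their median log2 difference was 0.58 against -0.02 over all genes. Against NTg alone, M337V differed by 0.33 (Dpy19l1) to 0.59 (Etv1) and WT by 0.52 (Pip4k2a) to 0.77 (Sypl). All 8 passed in each, beside 2.67% and 3.59% of all genes as higher. Without NTg 6 only Etv1 passed in M337V against NTg, in a fit that called 2 of 15132 genes, 1 of them higher. These contrasts share the NTg libraries and hold the values that chose the genes, so nothing is read from these counts. In the contrast of the mean of M337V and WT with NTg, 1768 of all genes passed, 575 without the library labelled NTg 4 and 98 without NTg 6, and in this contrast, which also chose them, all 8 passed in both of those fits.

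Etv1 (ENSMUSG00000004151, GRCm38 chromosome 12, 38779380 to 38870484, plus strand) had 113, 126, 121, 113 and 109 CPM in M337V 1, 2, 3, 7 and 9, 126 and 129 CPM in WT 8 and 10, and 82.0, 76.4 and 73.3 CPM in NTg 4, 5 and 6. The lowest transgenic library, M337V 9, was 1.33 times the highest NTg library, and both WT libraries lay inside or just above the M337V range. The log2 difference between the mean of M337V and WT and NTg was 0.66 ± 0.06 (SE), and 0.71 without the library labelled NTg 4. Lcorl (ENSMUSG00000015882, chromosome 5, 45697181 to 45857615, minus strand) had 36.3, 36.6, 37.9, 35.3 and 32.0 CPM in M337V 1, 2, 3, 7 and 9, 37.4 and 37.9 CPM in WT 8 and 10, and 26.8, 23.2 and 24.03 CPM in NTg 4, 5 and 6. WT lay at the top of the M337V range, and the library labelled NTg 4 was the highest of the NTg libraries. Its log2 difference was 0.57 ± 0.07 (SE), and 0.64 without that library. Exons of Lcorl overlap exons of Ncapg, a condensin subunit gene on the other strand, over 944 bases. The library kit keeps strand per the labels, but the sources used here do not say whether counting used it, so these reads are uncertain. Ncapg stood at 0.881, 1.21 and 2.04 CPM in M337V, WT and NTg.

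**Figure D2:**
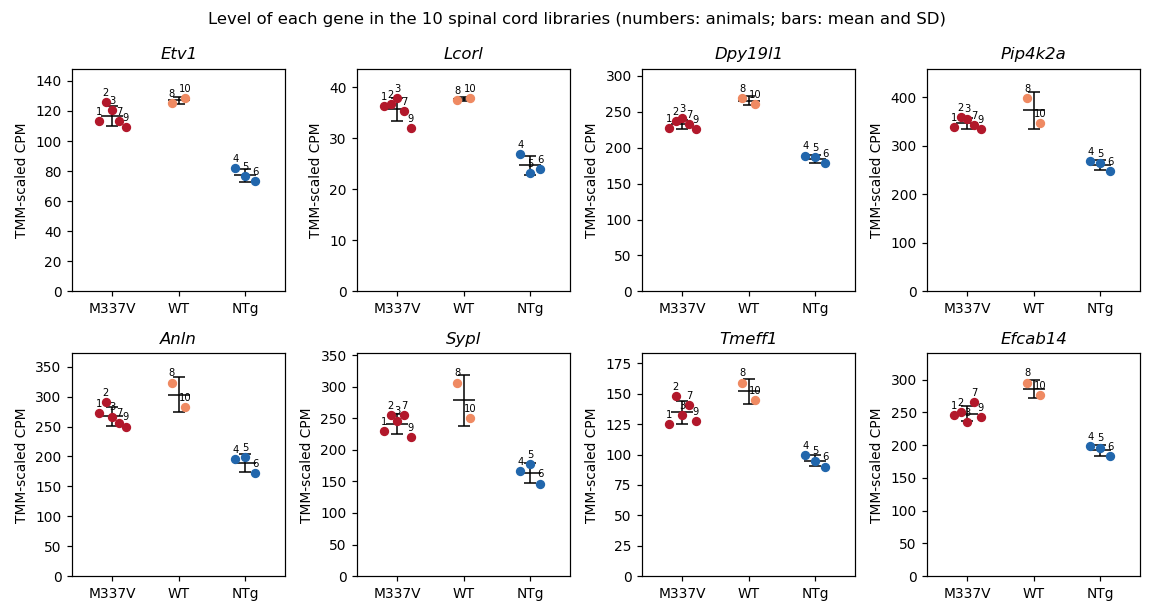
TMM-scaled CPM of each of the 8 genes (one panel per gene) in M337V (n = 5), WT (n = 2) and NTg (n = 3) libraries; points are libraries with their animal numbers, and bars give the mean and SD. In every panel the 7 transgenic points lie above the 3 NTg points, from 1.19 times (Efcab14) to 1.33 times (Etv1) between the nearest libraries.

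Of the enzymes, Dpy19l1 was the steadiest of the 8 within NTg. Dpy19l1 (ENSMUSG00000043067, chromosome 9, 24411776 to 24503140, minus strand) had 227, 237, 241, 233 and 227 CPM in M337V 1, 2, 3, 7 and 9, 269.9 and 261 CPM in WT 8 and 10, and 189, 187 and 178 CPM in NTg 4, 5 and 6. The highest NTg library was 1.06 times the lowest, and both WT libraries lay above all 5 M337V libraries. The log2 difference of the transgenic groups from NTg was 0.43 ± 0.04 (SE), and 0.45 without the library labelled NTg 4. Pip4k2a (ENSMUSG00000026737, chromosome 2, 18842255 to 18998126, minus strand) had 339.6, 359.5, 357, 343 and 335 CPM in M337V 1, 2, 3, 7 and 9, 399.7 and 347 CPM in WT 8 and 10, and 269, 265 and 248 CPM in NTg 4, 5 and 6. WT 8 stood above the rest while WT 10 lay inside the M337V range. The log2 difference was 0.46 ± 0.05 (SE), and 0.49 without the library labelled NTg 4.

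Anln, the scaffold gene, varied more among transgenic libraries. Anln (ENSMUSG00000036777, chromosome 9, 22332012 to 22389188, minus strand) had 273, 291, 267, 257 and 250.1 CPM in M337V 1, 2, 3, 7 and 9, 324 and 282 CPM in WT 8 and 10, and 195, 199 and 172 CPM in NTg 4, 5 and 6. Its highest transgenic library, WT 8, was 1.29 times its lowest, M337V 9, and WT 10 lay below M337V 2. The log2 difference was 0.59 ± 0.07 (SE), and 0.63 without the library labelled NTg 4.

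Of the membrane proteins, Sypl had the widest spread of the 8 in both transgenic and NTg cord. Sypl (ENSMUSG00000020570, chromosome 12, 32953891 to 32979860, plus strand) had 229, 255, 246, 255 and 221 CPM in M337V 1, 2, 3, 7 and 9, 307 and 249.9 CPM in WT 8 and 10, and 167, 178 and 147 CPM in NTg 4, 5 and 6. The highest transgenic library was 1.39 times the lowest, and the highest NTg library 1.21 times the lowest. Its log2 difference was 0.66 ± 0.08 (SE), and 0.68 without the library labelled NTg 4. Tmeff1 (ENSMUSG00000028347, chromosome 4, 48585174 to 48663131, plus strand) had 125, 148, 133, 141 and 128 CPM in M337V 1, 2, 3, 7 and 9, 159 and 145 CPM in WT 8 and 10, and 99.4, 95.1 and 90.2 CPM in NTg 4, 5 and 6. M337V 1 was the lowest transgenic library here, still 1.26 times the highest NTg library. The log2 difference was 0.59 ± 0.06 (SE), and 0.64 without the library labelled NTg 4. Efcab14 (ENSMUSG00000034210, chromosome 4, 115737744 to 115777327, plus strand), the calcium-binding protein gene, had 245, 251, 235, 266 and 242 CPM in M337V 1, 2, 3, 7 and 9, 295 and 276 CPM in WT 8 and 10, and 198, 196 and 183 CPM in NTg 4, 5 and 6. Its gap was the narrowest of the 8, and both WT libraries lay above all 5 M337V libraries. The log2 difference was 0.47 ± 0.05 (SE), and 0.50 without the library labelled NTg 4.

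Per kilobase of exon the order of levels was different from that in CPM. Averaged over all 10 libraries, Pip4k2a stood highest at 93.8 RPKM (CPM per kilobase of all annotated exons), followed by Tmeff1 at 49.6 RPKM, Dpy19l1 at 35.4 RPKM, Efcab14 at 29.1 RPKM, Anln at 27.7 RPKM and Sypl at 27.0 RPKM. Etv1, at 8.04 RPKM, and Lcorl, at 1.74 RPKM, the regulators of transcription, were the lowest. Anln and Sypl differed in this level by less than their spread between libraries.

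M337V cord was compared with WT cord, the other transgenic line. The choice of the 8 did not set these groups against each other, but it used the same libraries. The comparison is therefore not independent of the choice. All 8 were lower in M337V than in WT, by 0.08 to 0.21 on the log2 scale, and none passed edgeR's quasi-likelihood test at an adjusted p below 0.05, which 0% of all genes tested passed. At an unadjusted p under 0.05, 5 of the 8 differed, against 6.66% of all genes. The choice favours genes with a small spread between libraries, and that spread also sets this p. All genes are thus not a like comparison, and nothing is read from the count. The clearest differences were in Dpy19l1, at 233 ± 6.10 CPM in M337V and 266 ± 5.92 CPM in WT (log2 -0.19 ± 0.05 SE, adjusted p = 0.550), and Efcab14, at 248 ± 11.5 CPM in M337V and 286 ± 13.7 CPM in WT (log2 -0.21 ± 0.06 SE, adjusted p = 0.625; SD, n = 5 and n = 2 in edgeR's fit). These were also the 2 of the 8 in which both WT libraries lay above every M337V library. That was so for 4.65% of all genes tested, and for 10.7% of the 1220 genes with every transgenic library above every NTg library. DESeq2 called Dpy19l1 lower in M337V (adjusted p = 0.0342, 29 genes called in all) and none of the other 7, and limma-voom called none. For Lcorl the 95% interval of the difference ran from -0.25 to 0.09, for Pip4k2a from -0.24 to 0.03 and for Etv1 from -0.27 to 0.01.

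Of the 1220 genes with every transgenic library above every NTg library, 931 (76.3%) were lower in M337V than in WT, with a median of -0.05, whereas 49.8% of all genes tested were. The shared direction of the 8 was thus common among genes of the pattern that chose them, and nothing is read from it. The size of the difference in the 8 also rested on WT 8. Without it the median of the 8 was -0.10 instead of -0.18, 1 of the 8 had an unadjusted p under 0.05, and Pip4k2a turned to 0.000545 on the log2 scale. Dpy19l1 (-0.17), Efcab14 (-0.16) and Etv1 (-0.15) then had the largest differences of the 8, none past the threshold. WT 8 stood apart in its tissue too, with 12.6 CPM summed over the tested Hox genes of the caudal cord list, against 34.0 to 207 CPM in the other transgenic libraries and 168 to 218 CPM in NTg. The part of cord level in the result was not tested.

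Within the M337V genotype, animals 1 to 3 were set against animals 7 and 9, which differ from them in the order of their library names. The choice asked every transgenic library to lie above NTg, which favours genes that are steady among those libraries. A low number of differences here is thus partly fixed by the choice, and nothing is read from it. None of the 8 differed at an adjusted p below 0.05 in edgeR's test, where 0.145% of all genes tested did (22 genes), and none did at an unadjusted p under 0.05, where 10.4% of all genes did, or with DESeq2 or limma-voom. The differences ran from -0.06 (Efcab14) to 0.14 (Lcorl) on the log2 scale, a median of 0.04, and each 95% interval included 0. For Etv1 the interval ran from -0.03 to 0.25 and for Lcorl from -0.03 to 0.31.

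**Figure D3:**
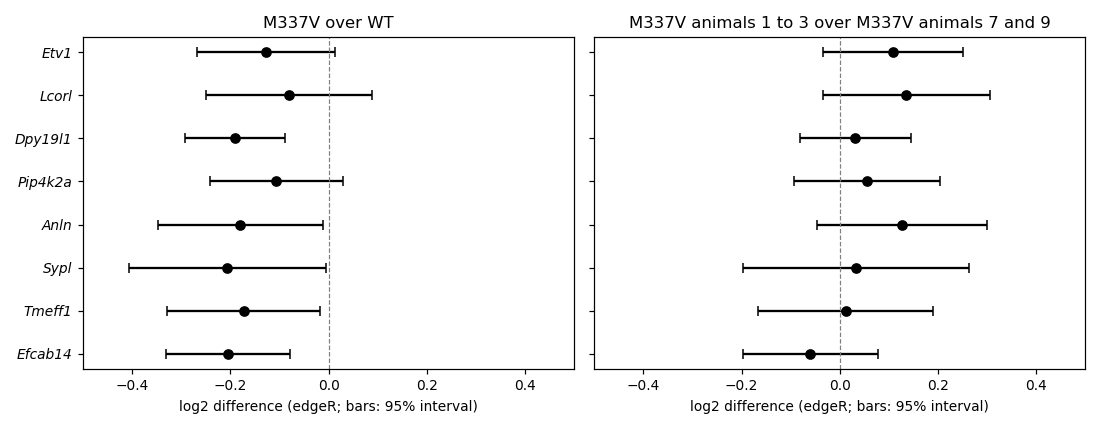
The log2 difference of each gene, with its 95% interval from edgeR's fit, for M337V over WT (left) and for M337V animals 1 to 3 over M337V animals 7 and 9 (right). On the left all 8 points lie below 0, between -0.21 and -0.08; on the right they lie between -0.06 and 0.14, and every interval includes 0.

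The 50 genes called relatives here, all tested, are family members except those listed with Anln and some listed with Lcorl. The 11 listed with Anln are septins and other genes not of its family. Those listed with Lcorl include the corepressor genes Ctbp1 and Ctbp2 and the overlapping gene Ncapg. Of the 50, 4 rose and 2 fell in the mean of M337V and WT against NTg, and their median log2 difference was -0.07. The relatives that rose were Dpy19l4, at 91.9, 96.4 and 75.0 CPM in M337V, WT and NTg (log2 0.33 ± 0.05 SE, edgeR adjusted p = 0.00589), the septins Sept2 (0.36 ± 0.05, adjusted p = 0.00586) and Sept7 (0.36 ± 0.08, adjusted p = 0.0163), and Tmeff2 (0.27 ± 0.07, adjusted p = 0.0395), the other tomoregulin gene. Ets2, an ETS factor, fell (-0.33 ± 0.08, adjusted p = 0.0211), as did Pip5k1c, a kinase that makes the same lipid as Pip4k2a from another precursor (-0.17 ± 0.05, adjusted p = 0.0404). Background calls over all genes were 6.59% higher and 5.05% lower, and the shares among the relatives, 8% and 4%, were close to them. Without NTg 6 only 1 relative passed, Dpy19l4, in a fit that called 98 of all genes. Without the library labelled NTg 4, 3 passed, in a fit that called 575. Once trends over GC content and length were removed, 4 of the 6 lost their call: Pip5k1c stood at 0.01, Sept7 at 0.17 (edgeR adjusted p = 0.0593), Tmeff2 at 0.19 (adjusted p = 0.129) and Ets2 at -0.22 (adjusted p = 0.0593). Sept2 (0.24) and Dpy19l4 (0.19) still passed. With relatives that had not passed before, 4 of the 50 passed in that fit.

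The relatives named next are the most abundant per length in the list of each gene among those that did not pass. For Etv1 these were Etv5, the nearest PEA3 factor, at 53.4, 53.4 and 52.2 CPM in M337V, WT and NTg (log2 0.03 ± 0.06 SE), and Elk4 (0.05 ± 0.06). Pip4k2b (-0.08 ± 0.05) and Pip4k2c (-0.09 ± 0.05) are the other kinases of the type of Pip4k2a. For Dpy19l1 they were Dpy19l3 (-0.12 ± 0.07) and Dpy19l2, at under 1 CPM in every group. All 6 relatives of Sypl had a negative difference and none passed, among them synaptophysin itself, Syp, at 735, 752 and 847 CPM in M337V, WT and NTg (-0.19 ± 0.07, edgeR adjusted p = 0.0961), and Syngr1 (-0.09 ± 0.06). Sept4 (0.09 ± 0.07) and Sept8 (0.11 ± 0.04, adjusted p = 0.123) are septins, the filament proteins that anillin binds. For Lcorl, the corepressor genes Ctbp1 and Ctbp2 stood at -0.10 ± 0.04 and -0.01 ± 0.06. Of the 7 other genes named for EF hands 0 passed, Efcab2 at 0.20 ± 0.06 (adjusted p = 0.056) and Efcab12 at -0.07 ± 0.16.

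**Figure D4:**
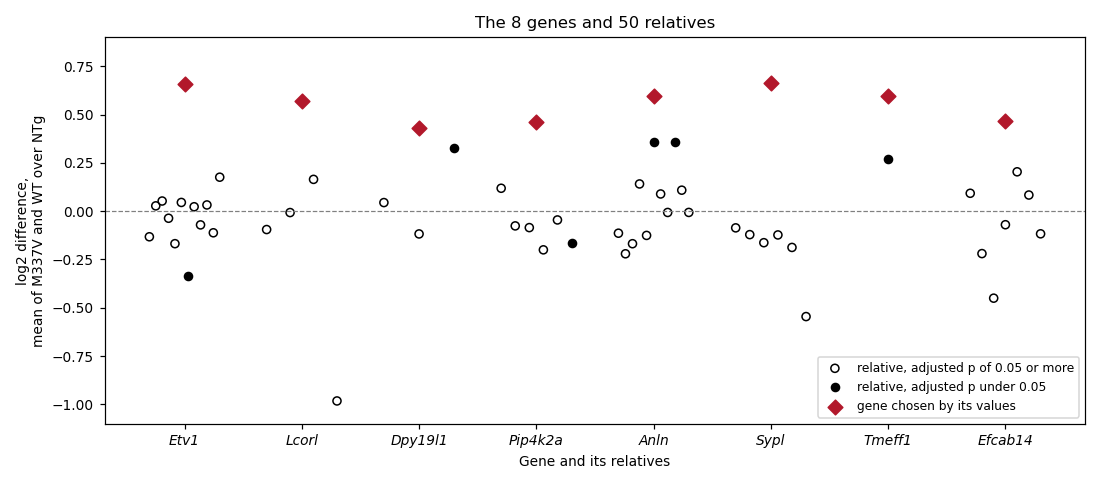
The log2 difference of the mean of M337V and WT over NTg. Red diamonds are the 8 genes, chosen by these values. Circles are the 50 genes listed as relatives, not all of them family members, filled where edgeR's adjusted p was under 0.05. Of the circles 4 are filled above 0, those of Dpy19l4, Sept2, Sept7 and Tmeff2, and 2 below, those of Ets2 and Pip5k1c.

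Markers of oligodendrocytes were high in the same libraries. Of 24 oligodendrocyte genes 16 rose and 0 fell between the transgenic groups and NTg, with a median of 0.30; 11 rose without the library labelled NTg 4, 12 without WT 8 and 6 without NTg 6. Over all genes tested 6.59% rose and 5.05% fell in that contrast. Higher calls over all genes were 1001, against 441 without the library labelled NTg 4 and 74 without NTg 6. The median of the oligodendrocyte list was 0.29 and 0.28 in those 2 fits. The summed level of the list ran from 35322 to 43026 CPM in M337V, 38519 to 42409 CPM in WT and 26522 to 31481 CPM in NTg. In bulk tissue, more cells of a type and more RNA per cell cannot be told apart. For Ermn, a gene of the list, M337V libraries averaged 502 ± 50.9 CPM (SD, n = 5), WT libraries 553 ± 23.1 CPM (n = 2) and NTg libraries 320 ± 39.1 CPM (n = 3). Its log2 difference, 0.72, was near the top of the list, which ran from 0.08 (Olig1, not called) to 0.73 (Ugt8a). Microglia genes (2 of 6 rose, median 0.27) and astrocyte genes (1 of 7, 0.14) also had members that rose. These lists are too short to set against the share of all genes. Without NTg 6 none of either list passed, and without the library labelled NTg 4 there were 1 of 6 and 0 of 7, while 5 of 6 microglia genes passed with GC content and length trends removed. Of 8 neuron genes 0 passed (median -0.03).

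Whether the 8 genes went with the oligodendrocyte list was examined within the 7 transgenic libraries. The choice of the genes did not compare these libraries with each other, though it used them. The libraries of both lines were pooled. The score was -0.06 to 0.15 in M337V and 0.11 to 0.19 in WT, and all 8 genes were higher in WT. A difference between the lines thus cannot be told apart from a relation within them, and M337V alone was not tested. Every r was positive, from 0.38 (Efcab14) to 0.87 (Lcorl), and none passed after adjustment over the 8. Without WT 8 the r of Efcab14 was 0.05, that of Tmeff1 0.33 and that of Dpy19l1 0.38. Anln, itself a gene of myelinating cells, had r = 0.84 (exact permutation p = 0.0188, adjusted 0.0802) and rho = 0.89 (exact p = 0.0123, adjusted 0.0984), with r = 0.87 when M337V 7 and M337V 9, the libraries farthest from the median score, were left out. Pip4k2a had r = 0.68 (exact p = 0.0944, adjusted 0.189) and rho = 0.79 (exact p = 0.048, adjusted 0.192), with r = 0.79 without those libraries. Lcorl (r = 0.87, exact p = 0.02, adjusted 0.0802, rho = 0.46) and Etv1 (r = 0.74, exact p = 0.0504, adjusted 0.134, rho = 0.46) rested on them, since without them r was -0.40 and 0.06. The sets of libraries with neighbouring names hold 3 and 4 transgenic libraries, too few for a value within each.

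**Figure D5:**
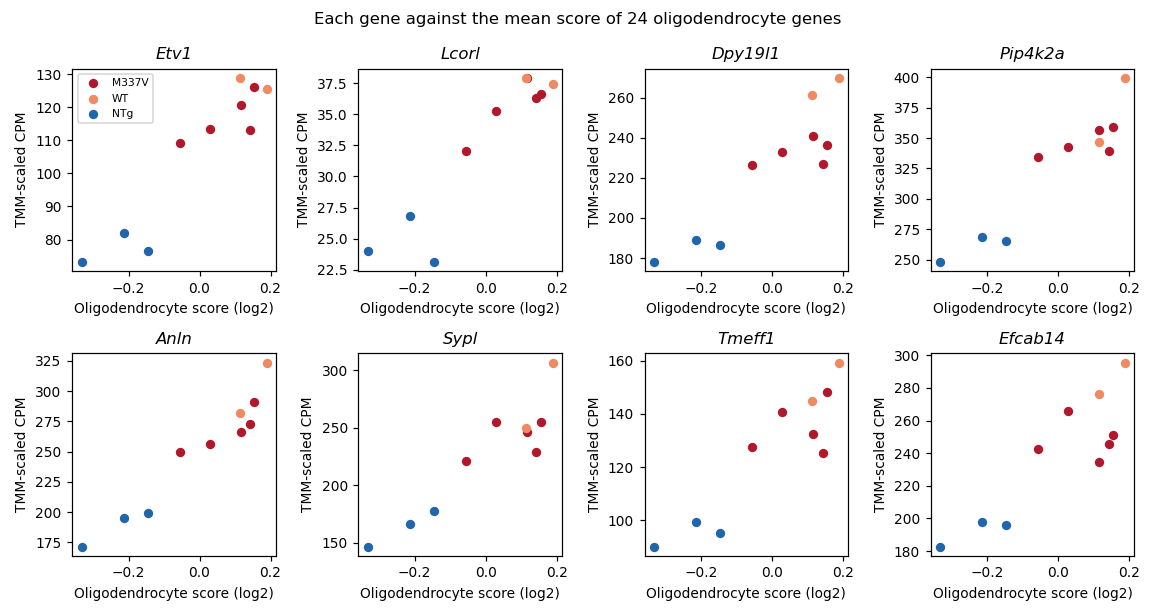
TMM-scaled CPM of each of the 8 genes against the oligodendrocyte score of the library, the mean of 24 genes in log2 CPM centred per gene; points are libraries coloured by group. NTg libraries lie at scores of -0.33 to -0.15 and the transgenic libraries at -0.06 to 0.19, and among the transgenic points Anln has a rho of 0.89.

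Of 6 proliferation genes 5 fell, with a summed level of 9.87 to 19.7 CPM in M337V, 8.74 to 14.8 CPM in WT and 23.3 to 52.2 CPM in NTg. Mki67, a marker of dividing cells, had a log2 difference of -1.86 ± 0.32 (SE, edgeR adjusted p = 0.00887), beside the 0.59 of Anln, whose protein serves cell division. All 5 neutrophil genes fell in edgeR's test, with sums of 44.2 to 118 CPM in M337V, 24.3 to 82.3 CPM in WT and 132 to 449 CPM in NTg. Over all genes tested 5.05% fell. Neither proliferation nor neutrophil sums overlapped between the transgenic libraries and NTg, but 1 gene of each list passed without the library labelled NTg 4 and 0 without NTg 6. Lower calls over all genes were 767, against 134 and 24 in those fits. The proliferation median was -1.30, against -0.97 without the library labelled NTg 4 and -1.29 without NTg 6. The neutrophil median was -2.05, against -1.40 and -2.22. Of the proliferation genes, 1 passed without WT 8, 2 without WT 10 and 3 with GC content and length trends removed. Muscle genes summed to 13.1 to 100.3 CPM in M337V, 12.7 and 382 CPM in WT and 97.1 to 626 CPM in NTg, and Schwann cell genes to 218 to 1444 CPM, 132 and 313 CPM, and 439 to 2031 CPM in the same order. No marker of these lists was at 0 in all libraries. The part of these other cells in the levels of the 8 genes was not tested.

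All 8 genes had a GC content under the median of the genes tested, and 7 of the 8 had a transcript longer than the median. The longest transcript of each ran from 2461 bases (Tmeff1) to 7912 bases (Lcorl), with a median of 4676 against 3421 over the genes tested. GC content was 36.7% (Lcorl) to 47.1% (Tmeff1), with a median of 43.2% against 49.9%. Libraries differed in smooth trends over both, and removing those trends lowered the log2 difference between transgenic and NTg cord most for Lcorl (to 0.40), Sypl (to 0.52), Etv1 (to 0.53) and Dpy19l1 (to 0.34), while Tmeff1 stood at 0.60. Every transgenic library still lay above every NTg library for all 8, the nearest for Efcab14 (228 CPM in a transgenic library and 200 CPM in an NTg library). Over all genes that correction left 909 higher and 256 lower calls, against 1001 higher and 767 lower without it. The genomic span of the 8, with a median of 84.5 kb, was above that of the genes tested, 25.04 kb.

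On the genome the 8 lay on 5 chromosomes, with 3 pairs sharing one. Dpy19l1 and Anln are 2.02 Mb apart on chromosome 9, and of the 5 tested genes between them 0 passed edgeR's test. Sypl and Etv1 are 5.80 Mb apart on chromosome 12, with 3 of 16 tested genes between them higher and 0 lower. Tmeff1 and Efcab14 are 67.1 Mb apart on chromosome 4, with 24 of 211 higher and 7 lower. Within 1 Mb of the 8 genes there were 113 tested genes, of which 7 rose and 9 fell. Over all genes tested 6.59% rose and 5.05% fell, and nothing is read from these counts. The septin gene Sept7, named above, is 1 of those that rose, near Dpy19l1. Of 37 tested genes near Anln 6 were called, and all fell.

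Upstream sequence is shown for the neighbours Dpy19l1 and Anln and for Tmeff1 and Etv1, which had the widest gaps of the 8, as 250 bases before a RefSeq start (GRCm38.p6), 5′ to 3′ on the gene's strand. Capitals mark matches to GGGCGG (the GC box) or CACGTG (an E box) on either strand. The windows are chr12:38779832-38780081 (plus strand), inside the span of the gene in GENCODE, for Etv1, chr4:48584924-48585173 (plus) for Tmeff1, chr9:22389207-22389456 (minus) for Anln and chr9:24503141-24503390 (minus) for Dpy19l1.
Etv1: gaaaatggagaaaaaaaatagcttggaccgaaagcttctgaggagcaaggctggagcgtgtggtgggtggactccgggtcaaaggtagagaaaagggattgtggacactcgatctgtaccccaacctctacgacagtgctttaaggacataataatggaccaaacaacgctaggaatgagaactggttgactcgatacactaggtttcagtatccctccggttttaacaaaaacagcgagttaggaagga
Tmeff1: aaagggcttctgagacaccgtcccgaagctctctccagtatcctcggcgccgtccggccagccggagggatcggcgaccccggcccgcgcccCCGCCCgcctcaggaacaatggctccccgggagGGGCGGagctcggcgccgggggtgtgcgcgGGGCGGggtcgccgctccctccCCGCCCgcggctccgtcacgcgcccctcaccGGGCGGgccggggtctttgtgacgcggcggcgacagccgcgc
Anln: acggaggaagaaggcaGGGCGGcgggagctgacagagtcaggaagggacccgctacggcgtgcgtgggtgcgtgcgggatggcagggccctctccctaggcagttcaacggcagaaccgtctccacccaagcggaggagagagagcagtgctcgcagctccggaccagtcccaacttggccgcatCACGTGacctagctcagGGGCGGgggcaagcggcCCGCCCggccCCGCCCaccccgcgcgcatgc
Dpy19l1: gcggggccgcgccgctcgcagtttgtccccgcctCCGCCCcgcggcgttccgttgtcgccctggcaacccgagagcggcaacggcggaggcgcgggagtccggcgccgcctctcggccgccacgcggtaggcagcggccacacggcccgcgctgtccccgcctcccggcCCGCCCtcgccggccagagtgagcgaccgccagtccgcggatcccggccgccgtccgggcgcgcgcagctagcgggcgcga
The printed window of Etv1 lies inside the gene's span, while the other 3 lie just before their genes, so the positions are unlike. It had 9 CpG pairs and 46.4% GC content. The others had 39 and 78% (Tmeff1), 24 and 70.4% (Anln), and 48 and 80.8% (Dpy19l1). The Etv1 window holds no GC box, while Tmeff1 has 5 matches, Anln 4 and Dpy19l1 2. Of the 12 RefSeq windows of the 8 genes, 8 held a GC box, in 7 of the genes, as did 32.7% of all 32851 RefSeq windows of the same length. The ETS motif CCGGAA, the kind of site that Etv1 binds, occurred in 1 of the 12 windows, that of Sypl, and in 12% of all windows. CCAAT (Efcab14), TATAAA (Etv1) and TGACTCA (Sypl) each occurred in 1 of the 12 windows, and CACGTG in 2 (Anln and Lcorl), against 33.8%, 12.4%, 4.46% and 6.02% of all windows. The TATAAA match is in a window of Etv1 that is not printed here.

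The genes outside the 8 whose levels over the 10 libraries were most like the mean of the 8 were Qk (r = 0.99), which encodes the RNA-binding protein quaking of myelinating cells, Rabgap1l (0.99), a gene of membrane traffic, Gpm6b (0.98), which encodes a membrane glycoprotein of neural cells, Dpy19l4 (0.98) and Cldnd1 (0.98), of the claudin superfamily. These r values are a description over 10 libraries that fall into groups. Qk had 1588, 1726 and 1171 CPM in M337V, WT and NTg. With the mean of the other 7, the r of each of the 8 ran from r = 0.95 (Lcorl) to 0.99 (Tmeff1).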

How the data were processed

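Deposited values are unnormalised gene counts, whole numbers made by the authors from polyA RNA-seq reads of 10 cords. The submitters' processing notes name STAR 2.4.2a, featureCounts, Salmon 0.8.2 and DESeq2 1.14.1 among other tools, without the step each served; the genome build is not given in the sources used here. The 8 genes and the lists of relatives and markers were chosen with earlier results of these data known. Names, positions, lengths and GC content came from GENCODE M21 (GRCm38), which named 21774 identifiers; 248 mouse identifiers had no name.

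In edgeR 4.0.16 (R 4.3.3), filterByExpr (minimum count 10, minimum total 15) kept 15191 genes, which hold 99.97% of counts. TMM factors scaled the libraries, and each genotype had its mean in a quasi-likelihood fit of all 10; a second fit gave M337V animals 1 to 3 and 7 and 9 separate means. Adjusted p-values are Benjamini-Hochberg values over all genes tested (threshold 0.05). The SE is the log2 difference over the root of F. Levels are TMM-scaled CPM. The oligodendrocyte score used log2 CPM with a prior count of 2. Besides the 8, genes were named where a relative passed and for up to 2 other relatives per gene with the highest level per length. Others named were the 3 widest gaps and the 5 most alike. Ermn, Olig1, Ugt8a and Mki67 were picked from the marker lists after their values were seen. Replicates are single animals. The fit was tested on simulated data. Alternatives were RLE factors, other filters, robust dispersions, DESeq2 1.42.0, limma 3.58.1 (voom), GC content and length offsets, and leaving out libraries; marker counts under them were added after seeing the data.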

Additional observations from a re-analysis of the deposited data

How the results depend on the processing

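No paired analysis was possible because the groups share no animal number. All 8 genes passed as higher in the mean of M337V and WT than in NTg, and did not overlap between groups, under every alternative run; that contrast chose them. In M337V against NTg the count was 1 to 8 over left-out M337V or NTg libraries. The 1, without NTg 6, was Etv1, in a fit that called 2 of all genes tested. In WT against NTg the count was 8 with any M337V or NTg library left out. In M337V against WT the count was 1 with DESeq2 (Dpy19l1) and 0 over left-out libraries, over which Pip4k2a ran from -0.21 to 0.000545. Between M337V animals 1 to 3 and 7 and 9 the count was 0 throughout; over left-out libraries Tmeff1 ran from -0.0604 to 0.0795, Efcab14 from -0.128 to 0.00214 and Sypl from -0.0703 to 0.136, and Tmeff1 stood at -0.00449 with GC content and length trends removed. Over all genes that comparison gave 22 calls, 148 with DESeq2 and 97 with limma-voom. Of the relatives 6 passed, 1 to 7 over left-out libraries, and Pip5k1c turned to 0.0143 with those trends removed. Genes with every transgenic library above every NTg library numbered 800 under total-count scaling, against 1220. With the oligodendrocyte score 0 of 8 passed throughout. The cause was not tested. WT has 2 animals and NTg 3, which limits every difference.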
